A study of Penaeus vannamei with 6 samples.

Results

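In the gill of young whiteleg shrimp, Penaeus vannamei, 159 of 341828 assembled transcripts were lower at each step down in culture salinity, from seawater through brackish water to fresh water. They were chosen by their own values. Each had a mean over the 6 libraries of at least 5 and under 1000 RPKM (read number per kilobase of transcript length and per fixed number of library reads), both seawater values above both brackish water values, both brackish water values above both fresh water values, and a seawater mean at least 4 times the fresh water mean. Their levels and ratios are therefore descriptions and carry no test. In the same RPKM range lay 8802 transcripts, so the 159 made up 1.81% of them.

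The gill of a shrimp exchanges gases and carries most of the salt transport between the water and the haemolymph. In dilute water shrimp take up sodium and chloride across the gill against the gradient, through ion pumps such as the Na+/K+-ATPase and V-type H+-ATPase, and in concentrated seawater they lose water and gain salt. P. vannamei tolerates a wide range of salinities, and the study set out to compare its gill transcriptome between waters of different salt content.

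The groups were gills of juveniles (Litopenaeus vannamei in the study's title) kept in one of 3 waters: seawater, brackish or fresh. The study's design text speaks of triplicates, and 2 libraries per group were analysed here, called the seawater pair, the brackish pair and the fresh pair, with library 1 given first. Seawater culture serves as the reference. The labels give no salinity, culture time, strain or number of animals behind a library, and nothing in them ties the libraries of a group to separate animals or tanks, so the spread between them, and any p-value made from it, may be technical. The transcripts come from a de novo assembly, which was made without a genome. An ID such as comp242928_c0_seq3 is read here as an assembly component (comp242928_c0), a set of transcripts put together by the assembler, and 1 transcript form in it. The files pair these IDs with no gene name, and a search in RefSeq's genes of assembly ASM4276789v1 matched 0 of them, so neither the functions of the 159 nor the gill label could be checked against known genes.

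The shallowest library, seawater 1, held 16500257 reads and the deepest, brackish water 1, held 37027007. The brackish water libraries stood apart from each other. Over the 8802 transcripts of the RPKM range, the median ratio of brackish water library 2 to library 1 was 0.30, and 75.5% of those with reads in both differed more than 2-fold. The same share was 41.8% for the seawater pair and 7.73% for the fresh water pair. In whole tissue, fewer cells of a type and less RNA per cell cannot be told apart.

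Over the 159 transcripts the median level was 48.6 RPKM in seawater library 1 and 35.6 in seawater library 2. In brackish water it was 13.1 in library 1 and 15.6 in library 2. In fresh water it was 6.06 in library 1 and 3.85 in library 2. The medians kept the order of the salinities, as the choice requires, and the fresh water libraries were the lowest. Over all 8802 transcripts of the range the medians were 8.25 and 8.92 RPKM in the seawater pair, 13.7 and 4.51 in the brackish pair and 13.4 and 15.6 in the fresh pair, so there the fresh pair was above the seawater pair and the brackish libraries lay far apart.

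**Figure D1:**
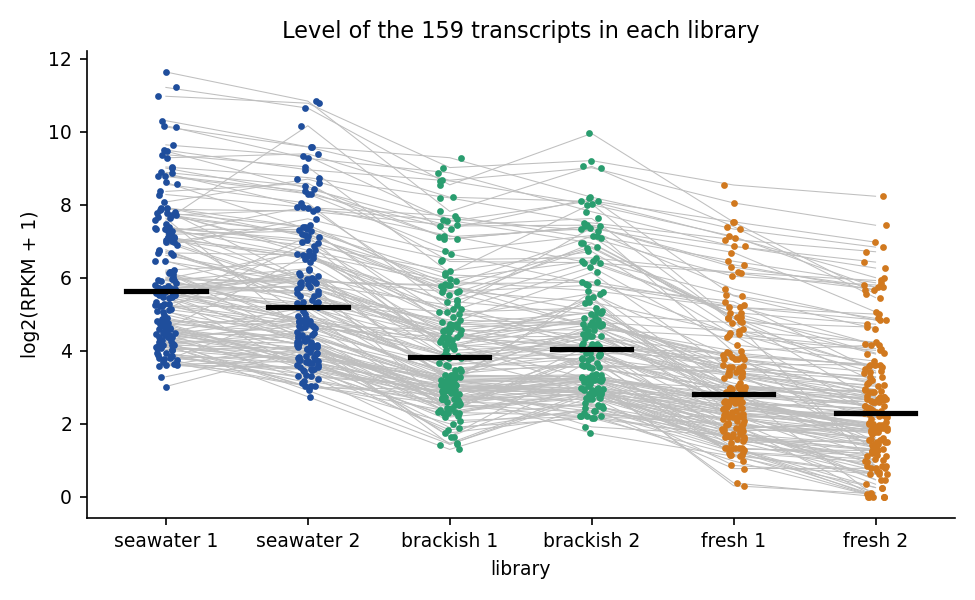
Level of each of the 159 transcripts in each library, as log2(RPKM + 1). Points are transcripts, grey lines join the values of 1 transcript and black bars are medians, which stand at 48.6 and 35.6 RPKM in the seawater pair, 13.1 and 15.6 in the brackish pair and 6.06 and 3.85 in the fresh pair before the log is taken.

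The 159 together took 2.87% and 2.15% of the reads of seawater libraries 1 and 2. They took 0.814% and 1.04% of the reads of brackish water libraries 1 and 2, and 0.383% and 0.230% of those of fresh water libraries 1 and 2. The 3 most abundant transcripts supplied 17.4% to 28.8% of these reads, depending on the library. The reads could be recovered from the RPKM values as whole numbers. The median transcript had 862 and 1162 reads in the seawater pair, 513 and 636 in the brackish pair and 210 and 110 in the fresh pair. Under 10 reads stood behind 4 of the 159 values of fresh water library 1 and 19 of those of library 2, where 6 transcripts had no read.

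The seawater mean was 4.02 to 239 times the fresh water mean, with a median ratio of 7.72. Between seawater and brackish water the median ratio was 2.74, with a range of 1.25 to 17.0. Between brackish and fresh water it was 2.85, with a range of 1.19 to 42.9. On RPKM as deposited the steps were thus of about equal size in the median. They were not under other scalings of the libraries: the median log2 ratios of the first and second step were 1.15 and 2.91 with TMM factors (trimmed mean of M-values, which align the bulk of transcripts between libraries), and 0.96 and 2.32 with quantile normalization. On the log scale the first step held a median of 48.9% of the whole difference, with 37.3% and 61.3% as quartiles. On RPKM as deposited the first step was the larger in 75 transcripts and the second in 84. Where the second step was larger the whole ratio was higher, with a median of 9.43 against 5.79. The whole ratio is the product of the 2 steps, so this is a description only.

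**Figure D2:**
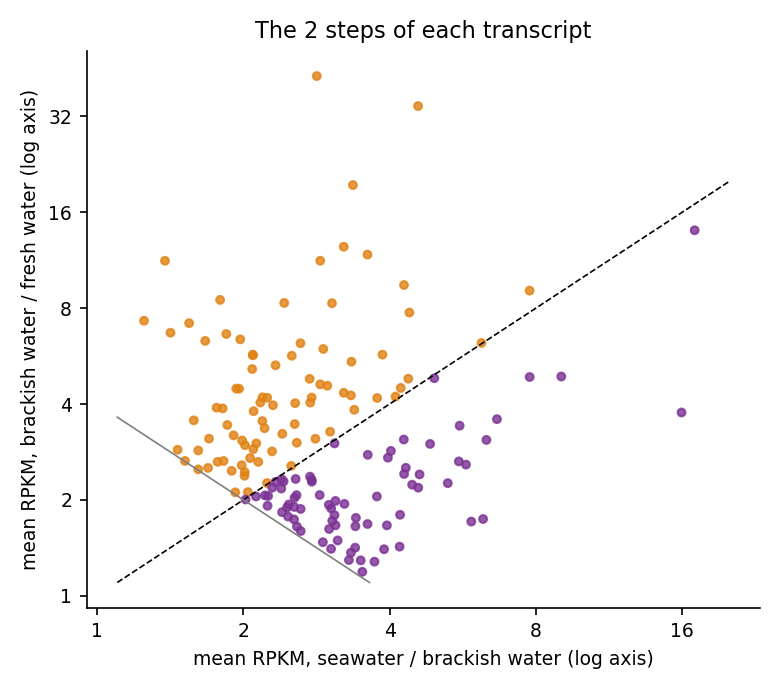
Ratio of mean RPKM between seawater and brackish water (x axis, log) against that between brackish and fresh water (y axis, log) for each of the 159 transcripts. Purple points, 75 in number, have the larger first step and orange points, 84, the larger second step; the dashed line marks equal steps and the grey line a seawater to fresh water ratio of 4, below which the choice admits none.

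The transcript with the highest ratio of seawater to fresh water was comp242928_c0_seq3, of 822 bases. It stood at 229 and 59.6 RPKM in the seawater pair, at 4.17 and 12.8 in the brackish pair and at 1.21 and 0 in the fresh pair. Its group means were 144 ± 120, 8.51 ± 6.13 and 0.605 ± 0.856 RPKM (SD, n = 2). The seawater to fresh water ratio was 239 and rested on 30 and 0 reads in fresh water. It also had the highest ratio between seawater and brackish water, 17.0, and its lowest seawater value was 4.64 times its highest brackish water value.

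Next by that ratio came comp231004_c0_seq1, of 782 bases, at 30.7 and 16.2 RPKM in the seawater pair, 2.11 and 8.14 in the brackish pair and 0.297 and 0 in the fresh pair. Its ratio of seawater to fresh water means was 158, over 7 and 0 reads in fresh water. Most of that difference lay in the second step, with a ratio of brackish to fresh water means of 34.5 against 4.58 for the first.

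For the first step alone the second place went to comp227212_c0_seq1, of 562 bases. Its seawater libraries differed widely, at 197 and 20.5 RPKM, against 8.27 and 5.39 in the brackish pair and 3.25 and 0.384 in the fresh pair. The seawater mean was 109 ± 125 RPKM (SD, n = 2), so the ratio of 16.0 to brackish water rests mainly on seawater library 1. The lower seawater value was still 2.48 times the higher brackish water value.

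For the second step alone comp235856_c0_seq1, of 1589 bases, had the highest ratio, 42.9. It stood at 24.4 and 10.05 RPKM in the seawater pair, 3.60 and 8.56 in the brackish pair and 0.230 and 0.0543 in the fresh pair, the last over 11 and 2 reads. Seawater library 2 was only 1.17 times brackish water library 2, whereas the lower brackish water value was 15.7 times the higher fresh water value.

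The most abundant of the 159 was a transcript of 347 bases in a component of 7 transcripts. It stood at 3195 and 1837 RPKM in the seawater pair, 225 and 531 in the brackish pair and 168 and 42.9 in the fresh pair, a ratio of seawater to fresh water means of 23.9. Its mean of 999.94 RPKM lay just inside the upper limit. The 2 transcripts kept out only by that limit, with means of 1165 and 1617 RPKM, belonged to the same component and had seawater to fresh water ratios of 15.2 and 18.0. The next in abundance, of 2109 bases, went from 2382 and 1607 RPKM in seawater through 373 and 993 in brackish water to 183 and 46.1 in fresh water. In both of these abundant transcripts brackish water library 2 was over 2-fold above library 1, and fresh water library 1 was over 3-fold above library 2. The third, of 1055 bases, was more even, at 2014 and 1765 RPKM in the seawater pair, 519 and 592 in the brackish pair and 372 and 300.4 in the fresh pair.

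At the other limits, the lowest mean inside was 5.01 RPKM and the highest just outside was 4.97. The lowest seawater to fresh water ratio inside was 4.02 and the highest outside was 3.997, and 165 transcripts missed by that ratio alone. Seawater exceeded brackish water by a factor of 1.05 in the transcript nearest to overlap, and the nearest outside stood at 0.999. For brackish over fresh water these values were 1.01 and 0.988. By overlap of seawater with brackish water alone 120 transcripts were missed, by overlap of brackish with fresh water alone 86, and by a mean under 5 RPKM alone 259.

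The gaps between the groups varied from slight to wide. The lowest seawater value was at least 1.5 times the highest brackish water value in 98 transcripts, and the lowest brackish water value at least 1.5 times the highest fresh water value in 103. Both gaps reached 1.5 in 60 and 2 in 16, while in 14 transcripts 1 of the gaps was under 1.1. Exact 95% Poisson intervals of the reads, which cover counting error only, lay apart across the first gap in 137 transcripts and across the second in 122. The choice already requires the values themselves not to overlap. The same count was not made over other transcripts, so nothing is read from it. Of the 16 with wide gaps, the widest on both sides at once was a transcript of 1650 bases that stood at 219 and 166 RPKM in the seawater pair, 24.1 and 25.5 in the brackish pair and 3.50 and 1.96 in the fresh pair. Here the smaller gap was 6.53-fold, and the 3 groups were each tight against the distance between them.

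On RPKM as deposited, 1 step held most of the difference in some transcripts. In 24 the first step held over 66.7% of the log difference and in 27 under 33.3%. A transcript of 1864 bases was an example of the first kind, at 37.6 and 18.0 RPKM in the seawater pair, 7.85 and 7.98 in the brackish pair and 6.85 and 6.48 in the fresh pair, with 87.9% in the first step. A transcript of 929 bases was an example of the second kind, at 234 and 226 RPKM in the seawater pair, 172 and 197 in the brackish pair and 26.5 and 24.0 in the fresh pair, with 10.1% in the first step. The first had brackish water close to fresh water and the second had it close to seawater, with little spread between the libraries of a group except for seawater in the first.

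Within the groups the libraries also kept a common order. Fresh water library 1 was above library 2 in 150 of the 159 transcripts, or 94.3%, against 33.8% of the 8802 of the RPKM range. Seawater library 1 was above library 2 in 121, or 76.1%, against 34.6%. Brackish water library 2 was above library 1 in 99, or 62.3%, against 17.7%. The order within a group is no part of the rule. It was not particular to the stepwise transcripts, since the 308 others with non-overlapping seawater and fresh water values and a ratio of at least 4 had shares of 93.2%, 78.6% and 71.8%. The 133 transcripts that met the mirrored rule, with fresh water highest and seawater lowest, had 10.5%, 40.6% and 6.02%.

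The most frequent order of all 6 libraries, from high to low, was seawater 1, seawater 2, brackish water 2, brackish water 1, fresh water 1 and fresh water 2, in 75 transcripts. The same order with the brackish water libraries exchanged came second, in 38. In all, 7 orders were seen. The brackish water libraries were closer to each other than in the rest of the range, as a choice that places both between the other groups favours. Their median ratio of library 2 to library 1 was 1.13, and 27.0% of the 159 differed more than 2-fold between them, against 75.5% of the range.

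**Figure D3:**
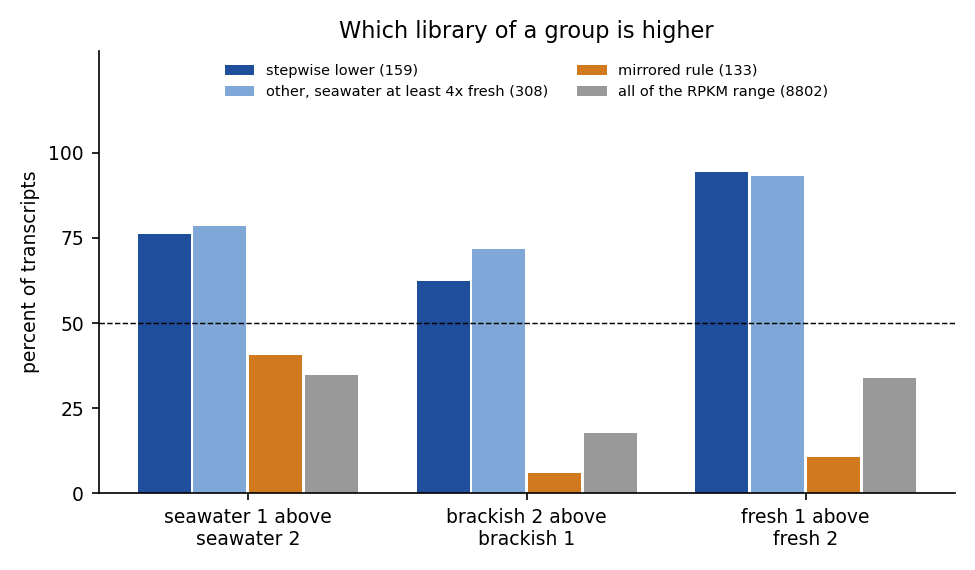
Percent of transcripts (y axis) in which the named library of a group was above the other, for the 159 stepwise transcripts, the 308 others with seawater at least 4 times fresh water, the 133 of the mirrored rule and all 8802 of the RPKM range. Fresh water library 1 was above library 2 in 94.3% of the 159 and in 33.8% of the range; the dashed line marks 50%.

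Among transcripts of the range with seawater above fresh water without overlap, at a ratio of at least 4, brackish water decided which entered the list. Seawater values lay above fresh water values without overlap in 18.9% of the range, above brackish water values in 16.9%, and brackish above fresh water values in 6.94%. With a seawater to fresh water ratio of at least 4 as well, 467 transcripts remained, 5.31% of the range. Of these, the 159 had both brackish water libraries between the other groups. In 111, or 23.8%, brackish water library 1 was at or below the higher fresh water value while library 2 was at or above the lower seawater value. The opposite arrangement occurred in 9. Both brackish water libraries were at the seawater end in 30 and both at the fresh water end in 18. The 308 that were left out thus included 111 in which the 2 brackish water libraries lay on opposite sides of the whole interval.

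Among the 6 possible orders of 3 groups without overlap, the stepwise orders were the most frequent where a 4-fold ratio between the end groups was also required. Besides the 159, 133 transcripts had fresh water highest and seawater lowest. The other 4 orders, in which brackish water was at an end, held 19, 13, 7 and 6. With no ratio required between the end groups the order of frequency changed. Seawater above brackish above fresh water then held 324, seawater above fresh above brackish water 166, the mirrored order 143 and fresh above seawater above brackish water 84. The balance of 159 against 133 changed with the thresholds, with single libraries and with the scaling. It was 245 against 611 with a mean of at least 1 RPKM, 75 against 106 with a ratio of at least 8 and 120 against 120 with RPKM summed over each component. Leaving out 1 library turned it in 5 of 6 cases, to 176 against 314 and 208 against 477 without seawater library 1 or 2, 212 against 541 and 243 against 610 without brackish water library 1 or 2, and 275 against 403 without fresh water library 1. The exception, without fresh water library 2, was 144 against 102. With a library left out, 1 value stands for its group, so both rules ask for fewer values in order. With RPKM divided by TMM factors it was 347 against 63, and with quantile normalization 192 against 125.

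Scaling also moved brackish water library 2 against seawater. The TMM factors were 0.647 and 0.864 for the seawater pair, 1.56 and 0.384 for the brackish pair and 1.57 and 1.91 for the fresh pair. Dividing by them can only widen seawater over fresh water, seawater over brackish water library 1 and both brackish water libraries over fresh water, and these orders held in all 159. Seawater stayed above brackish water library 2 in 70, and the median ratio of brackish water library 2 to library 1 went from 1.13 to 4.59. Of the 347 transcripts that met the rule on this scale, 68 were among the 159. After quantile normalization of RPKM, which gives each library the same set of values, seawater was above brackish water library 2 in 107 of the 159 and above library 1 in 148. In 89 of the 159, then, brackish water library 2 lay below both seawater values on the RPKM scale and not on the TMM scale.

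**Figure D4:**
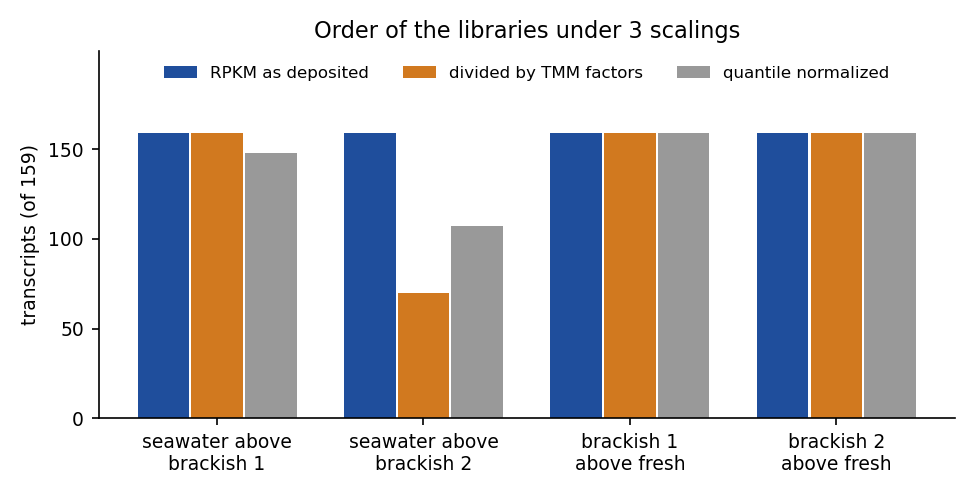
Number of the 159 transcripts (y axis, from 0) in which both seawater values were above each brackish water library, and each brackish water library above both fresh water values, with RPKM as deposited, divided by TMM factors or quantile normalized. Seawater above brackish water library 2 went from 159 to 70 and 107.

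In the limma fit of all tested transcripts on log2(RPKM + 1), 65 of the 159 were lower in fresh water than in seawater at an adjusted p under 0.05, where 0.625% of 25901 tested transcripts were. Since the choice used this contrast, nothing is read from that count. The median log2 fold change of the 159 was -2.69, beside 0.89 over all tested transcripts, and on TMM-scaled RPKM these were -3.64 and 0.05. For neither step alone did limma call a single transcript of the 159. For brackish water against seawater the count was 0 (38 at an unadjusted p under 0.05), where 0.00386% of all were called lower. For fresh against brackish water it was 0 (40 at an unadjusted p under 0.05), where 0.112% were called lower. Of all 25901 tested, 1666 and 1467 reached that unadjusted p in these 2 steps, in either direction. By edgeR with TMM on the recovered reads the 3 counts were 0, 0 and 0, with 158, 9 and 136 at an unadjusted p under 0.05. Of all 25901, 8406, 5388 and 1651 reached it in either direction. By DESeq2 the 3 counts at an adjusted p under 0.05 were 159, 3 and 49, where 11.7%, 2.17% and 1.25% of all tested were called lower. The choice used all 3 contrasts, so nothing is read from these counts either.

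A limma fit without 1 library leaves a lone library in a group, so only effect sizes are given for such fits. Between fresh water and seawater the median log2 fold change of the 159 was -2.32 without fresh water library 2 and -2.95 without library 1. Over all tested transcripts it was 0.77 and 0.99. Without seawater library 1 or 2 it was -2.48 or -2.86 for the 159, and 0.77 or 1.06 over all tested. Leaving out a brackish water library left it at -2.69 and 0.89. With all 6 libraries on TMM-scaled RPKM, limma called 0 of the 159 for that comparison, and 0 of all tested in either direction. At an unadjusted p under 0.05 were all 159, and 8423 of the 25901 tested in either direction. The choice used this contrast, so nothing is read from these counts. In fresh against brackish water the median log2 fold change of the 159 was -1.33 without brackish water library 1 and -1.18 without library 2. Over all tested transcripts these were 1.36 and 0.02. In brackish water against seawater the medians of the 159 were -1.25 without brackish water library 1 and -1.51 without library 2. Over all tested they were -0.47 and 0.77.

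Of the 159, 44 were marked in the authors' deposited table of all transcripts under an FDR header, for fresh water against seawater, where 2.39% of the RPKM range was marked. For brackish water against seawater that table marked 10, where 0.568% was marked. Both shares of the range count marks in either direction. For fresh against brackish water only 62 of the 159 and 2370 of the range held a yes or a no in the authors' deposited table, and 14 and 1.27% of these were marked. In the authors' deposited tables of single pairs, that of fresh water against seawater held an entry for 72 of the 159 and 2000 of the range, and marked all 72 and 83% of the 2000 as significant. For brackish water the authors' deposited table held an entry for all 159 and marked 30, where 2.09% of the range was marked. These marks rest on the same values as the choice.

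By class of mean RPKM, a value the choice used, abundant transcripts were more often in the list. The shares are a description only. The 159 made up 1.15% of the transcripts with a mean of 5 to 10 RPKM, 1.62% of those at 10 to 30, 3.09% at 30 to 100, 3.34% at 100 to 300 and 3.56% at 300 to 1000. By the same classes the median ratio of seawater to fresh water was 6.41, 6.40, 10.1, 6.86 and 6.51, so it did not follow abundance. In number, 43, 47, 41, 19 and 9 of the 159 lay in these classes.

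The stepwise transcripts were short for their range. Length, which the choice did not use, had a median of 974 bases against 1436 over the 8802, and 12.0% were over 2000 bases against 35.0%. They ranged from 209 to 6655 bases. The median was lower than that of the range in each of the 5 abundance classes, for example 1110 against 1594 bases at 5 to 10 RPKM and 834 against 965 at 300 to 1000. Short length was not particular to the stepwise transcripts. The 308 other transcripts with seawater at least 4 times fresh water had a median of 664 bases and the 133 of the mirrored rule one of 905. All 1664 transcripts with seawater above fresh water, at any ratio, had a median of 1218 bases. The 4604 with fresh water above seawater, at any ratio, had one of 1670, above that of the range.

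The 159 came from 143 components, of which 79 held a single transcript. That was 55.2% of the components, against 67.0% of the 6731 components in the RPKM range. In 13 components 2 or 3 transcripts of the list occurred together. Such transcripts may share sequence and reads, so they are not separate observations. Their steps were alike. The share of the log difference in the first step differed by a median of 4.43 percentage points between transcripts of 1 component. The widest difference was in the component of the most abundant transcript, where the 347-base form had 59.7% in the first step and an 1856-base form 29.7%.

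The components comp241697_c0 and comp241697_c1, which share a number, held 5 of the 159, the most under any one component number. All 5 were of low abundance, with means of 6.56 to 11.9 RPKM. Their seawater to fresh water ratios were 4.80 to 7.55. The first step was the larger in each, with 57.9% to 71.0% of the log difference.

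The components held 135 further transcripts that did not meet the rule, 73 of them under 5 RPKM and 3 at or above 1000. In the other 59 the ratio of seawater to fresh water means had a median of 2.77, against 0.658 over the whole range. Their seawater values lay above their fresh water values in 42, below them in 6 and overlapped in 11, where the range had 18.9% above and 52.3% below. Since the forms of a component may share sequence, reads may have been split between them, and these counts are a description.

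Summing RPKM over the component lowered the ratio in some cases and left it in others. Among the 64 components with more than 1 transcript the summed ratio of seawater to fresh water had a median of 5.63, against 6.71 for the transcripts of the list. In 35 of them the sum still met the whole rule. In 20 the summed ratio was under 4, and in 14 it was less than 50% of the ratio of the listed transcript. In 60 of the 64 the summed seawater values stayed above the summed fresh water values. Each sum includes the listed form, chosen with seawater at least 4 times fresh water, which favours this. The same count was not made over other components.

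**Figure D5:**
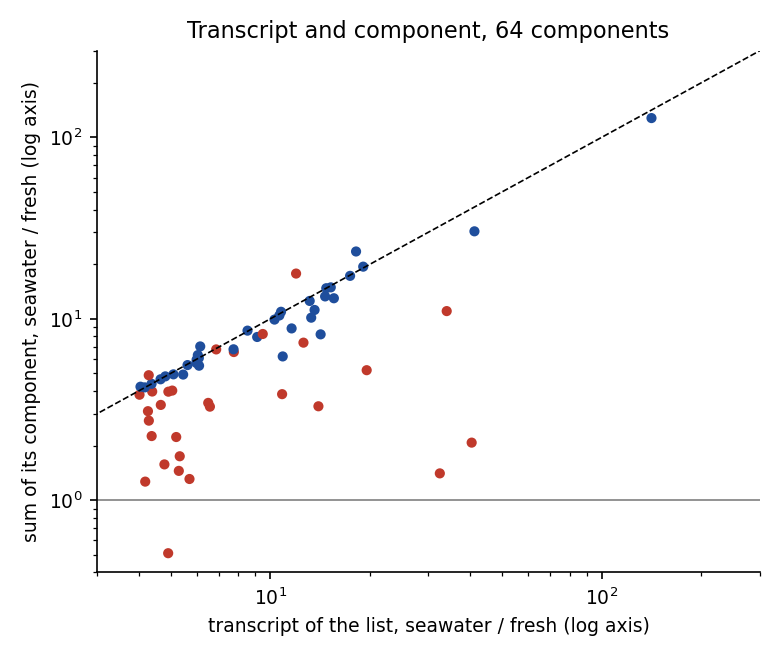
Ratio of seawater to fresh water mean RPKM for the listed transcript (x axis, log; the median where a component has several) against the same ratio for the sum of all transcripts of its component (y axis, log), for the 64 components with more than 1 transcript. Blue points, 35 in number, have sums that met the whole rule and red points have sums that did not; the dashed line marks equal ratios and the grey line a summed ratio of 1, below which 1 component lies at 0.511.

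In 1 component the sum went the other way from its listed transcript. Component comp245274_c1 held a listed form of 1156 bases, at 71.0 and 23.6 RPKM in the seawater pair, 19.6 and 16.4 in the brackish pair and 10.5 and 8.76 in the fresh pair. Its 350-base form, comp245274_c1_seq1, stood at 98.7 and 81.0 RPKM in the seawater pair, 137 and 31.7 in the brackish pair and 256 and 243 in the fresh pair. The 1149-base form, comp245274_c1_seq6, stood at 2.69 and 2.47 RPKM in the seawater pair, 10.9 and 0.517 in the brackish pair and 13.8 and 15.5 in the fresh pair. Both of these forms were higher in both fresh water libraries than in either seawater library, while brackish water library 1 was high and library 2 low. The sum over the 3 forms was 140 RPKM on average in seawater and 274 in fresh water. These IDs were picked after their values were seen.

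Sums hid the largest differences in a pair of components. In the one, the listed form of 519 bases had a ratio of 40.5 and the component sum a ratio of 2.08. In the other, the listed form of 3178 bases stood at 61.8 and 105 RPKM in the seawater pair, 15.5 and 42.5 in the brackish pair and 3.57 and 1.57 in the fresh pair, a ratio of 32.5, and the component sum had a ratio of 1.41. In both, another form of the component was higher in fresh water than in seawater in all 4 libraries compared.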

How the data were processed

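Per the labels' protocols, gill RNA was extracted with Trizol and mRNA libraries were sequenced on an Illumina instrument. The sources used here name no assembler, aligner or counter. What the authors deposited was, per the file headers, RPKM per transcript and library, and for each group a mean of the expected counts of its 2 libraries. The authors also deposited yes or no marks, whose rule the headers do not give. Length times RPKM, divided by what 1 read is worth in that library, came out whole, within 0.1 read, for 100% of values, and these reads gave 100% of 553302 deposited mean counts.

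The rule was applied to deposited RPKM. The 25901 transcripts that averaged 1 RPKM or more were fitted with limma 3.58.1 (trend option) on log2(RPKM + 1), which understates changes of low values. All 6 libraries entered with group as the only term, leaving 3 residual degrees of freedom, with Benjamini-Hochberg adjustment at 0.05. Alternatives were edgeR 4.0.16 and DESeq2 1.42.0 on recovered reads, TMM factors, quantile normalization, other filters and pseudocounts, the compared groups alone, a replicate block and each library left out. The limma and edgeR fits, but not DESeq2, were tested on simulated data drawn with the same spread in all libraries. That test does not cover libraries that differ as the brackish pair does. The members and lists were chosen with earlier results of these data known. IDs were named for the 2 highest ratios of each of 3 pairs of groups, 1 per component, and other transcripts were taken by rank or place in the list. The IDs carry no gene names, so no pathway or marker list was applied.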

Additional observations from a re-analysis of the deposited data

How the results depend on the processing

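The number of transcripts meeting the rule, 159, moved to 347 with TMM factors, 245 with a mean of at least 1 RPKM, 278 with a ratio of at least 2 and 75 with a ratio of at least 8, and ran from 144 to 275 with a library left out. The mirrored rule, at 133, gave 63 with TMM factors, 611 with a mean of at least 1 RPKM and 71 with one of at least 10. It gave 102 to 610 with a library left out, where it exceeded the rule itself in 5 of 6 cases. With a library left out both rules ask for fewer values in order. The median log2 ratio of the 159 from seawater to fresh water, 2.95, was 4.14 with TMM factors. From seawater to brackish water it went from 1.46 to 0.96 with quantile normalization, and from brackish to fresh water from 1.51 to 2.91 with TMM factors and 2.32 with quantile normalization, so that the second step was then the larger. The log2 ratios of the 4 transcripts named first ranged from 3.50 to 9.10 over 34 recomputations, and their sign follows from the choice of transcripts. For comp242928_c0_seq3 and comp231004_c0_seq1 no ratio could be formed without fresh water library 1, since fresh water library 2 held 0 reads of them.

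Members called lower by limma numbered 65 between seawater and fresh water, 0 in the first step and 0 in the second. The 65 became 0 with TMM factors, with quantile normalization and by edgeR, where 0 of all tested were called lower. They also became 0 with no filter beyond a value above 0 and with a mean of at least 5 RPKM. There 2 and 0 of all tested were called lower. In a fit of the 2 groups alone the 65 became 153, where 783 of all 25901 tested were called lower and 9585 higher. With 1 library left out the counts ran from 2 to 154, 0 to 12 and 0 to 43, the lone library of a group being assumed to vary like the others. Nothing is read from the counts with a library left out, since 1 library then stands for a group. The 2 groups alone gave 1 and 3 for the single steps, where 6 and 65 of all tested were called lower. DESeq2 gave 159, 3 and 49, where 3031, 562 and 325 of all tested were called lower. The cause was not tested. With the library number as a replicate block the counts were 37, 1 and 2, where 137, 11 and 44 of all tested were called lower. The correlation of library 1 minus library 2 across transcripts was 0.27 between seawater and fresh water, -0.46 between seawater and brackish water and -0.41 between brackish and fresh water, so same-numbered libraries deviated together in 1 of 3 pairs of groups, and the numbers were not taken to pair the libraries. Depth limits the lowest fresh water values, where 19 transcripts had under 10 reads in library 2.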
